A study of Mus musculus with 4 samples.

Results

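Guanylate-binding proteins (GBPs) and immunity-related GTPases (IRGs) are described here in mouse fibroblast cultures under reprogramming. The members were fixed by name as 10 interferon-induced GTPases: Gbp2, Gbp3, Gbp6, Gbp7, Gbp9, Igtp, Irgm1, Irgm2, Iigp1 and Tgtp1. Of these 10 genes, 9 matched a row among the 22369 genes of the deposited expression table, and Gbp6 is not analysed here. RNA sequencing compared cultures labelled SOX17-V118M (2 libraries), a missense form of this endodermal transcription factor, with cultures labelled SOX17 (2 libraries). The latter are called wild type below, a name for the form of SOX17 that the labels do not use. In each library the cells were OG2MEF, embryonic fibroblasts with a green fluorescent reporter under Oct4 control, taken on day 9 of reprogramming. Per the labels' protocols, retroviruses from PlatE cells carried Sox2 and Klf4 with OCT4, SOX17, SOX17-V118M or GFP, and the cells were then cultured in medium for embryonic stem cells, supplemented with vitamin C and LIF. The labels do not say which mixture each library received, whether replicates were separate cultures, or the age of the embryos. The p-values therefore measure the spread between these libraries, which may be technical.

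GBPs and IRGs are GTPases that cells make after contact with interferon. Interferon gamma acts through its receptor, the kinases JAK1 and JAK2 and a factor that binds the gamma-activated sequence (GAS). Type I interferons act mainly through a complex that contains IRF9 on the interferon-stimulated response element (ISRE), which IRF1 and related factors also recognise. In mouse cells, fibroblasts included, the proteins gather on the vacuoles of intracellular pathogens such as Toxoplasma and Chlamydia and help to break them open. Irgm1, Irgm2 and Igtp encode regulatory IRGs that hold the effector IRGs, such as those of Iigp1 and Tgtp1, inactive on the cell's own membranes.

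The values are scores that appear quantile-normalized, since 76.7% of ranks were equal in all 4 columns and column totals ranged only from 12855482 to 12859613. Sequencing depth cannot be read from them, and no counting limits are given. A gene in the middle of the table had a value of 76. V118M replicate 2 stood apart, with a Pearson correlation of 0.954 to 0.964 with the other libraries across 12661 genes, while the remaining pairs lay between 0.986 and 0.990. Fibroblast markers were abundant in the 4 libraries, with Col1a2, a collagen chain, at 29492 in each. Summed values of 14 fibroblast markers were 191516 and 151124 in V118M and 190384 and 187699 in wild type. Col3a1 was at 61186 and 29496 in V118M and at 61186 in each wild-type library. Fn1 was at 29480 and 14852 in V118M and at 29480 and 22740 in wild type. Such top scores recurred between genes, as Vim was also at 29480 in V118M replicate 2 and wild-type replicate 2. Under quantile normalization they follow rank, so equal values or steps among them need not match equal or changed RNA levels. The same limit holds for the fibroblast sums. Of 10 pluripotency markers the sums were 432 and 446 in V118M against 282 and 308 in wild type. Most of each sum came from Tdgf1 (188 and 149 in V118M, 83 and 126 in wild type) and Tdh (182 and 222 against 171 and 138). Nanog was at 6 in each V118M library against 1 and 8 in wild type, and Esrrb at 0 in each against 1 and 0. Of 7 of these markers tested, 6 had a log2 fold change above 0 and 1 below, with a median of 0.71. Utf1 was the only one with an unadjusted p under 0.05 (limma unadjusted p = 0.0191, adjusted p = 0.951). It was at 33 and 38 in V118M and at 10 and 17 in wild type. In such bulk samples, fewer cells of a type and less RNA per cell cannot be told apart.

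In V118M cultures the 5 measured IRG genes and Gbp3 had more than 2 times the wild-type mean, while Gbp2, Gbp7 and Gbp9 differed less. Both V118M values lay above both wild-type values in 8 of 9 measured members, where 13.2% of the 19547 genes tested showed this. No member passed an adjusted p of 0.05 over all genes (limma), nor did any of the other tested genes, so that background is 0%. At an unadjusted p under 0.05, 5 of 9 members were called as higher and none as lower, against 2.31% and 1.70% of all tested genes. These 5 members were Irgm1, Gbp3, Irgm2, Igtp and Iigp1. The median log2 fold change of the measured members was 1.24, beside 0.00 for all tested genes. Leaving out V118M replicate 1 gave a median of 1.05 and leaving out replicate 2 gave 1.15, so the shift was present in each V118M library. Without V118M replicate 1 or 2 the members called as higher numbered 2 and 1, against backgrounds of 14.0% and 4.63%. Without wild-type replicate 1 or 2 they numbered 4 and 3, against 0.938% and 1.12%. All 9 measured members passed the filter on low values in both groups, and none was listed at 0 in any library. With 2 libraries against 2, an exact two-sided permutation test of a single gene cannot go below p = 0.333.

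**Figure D1:**
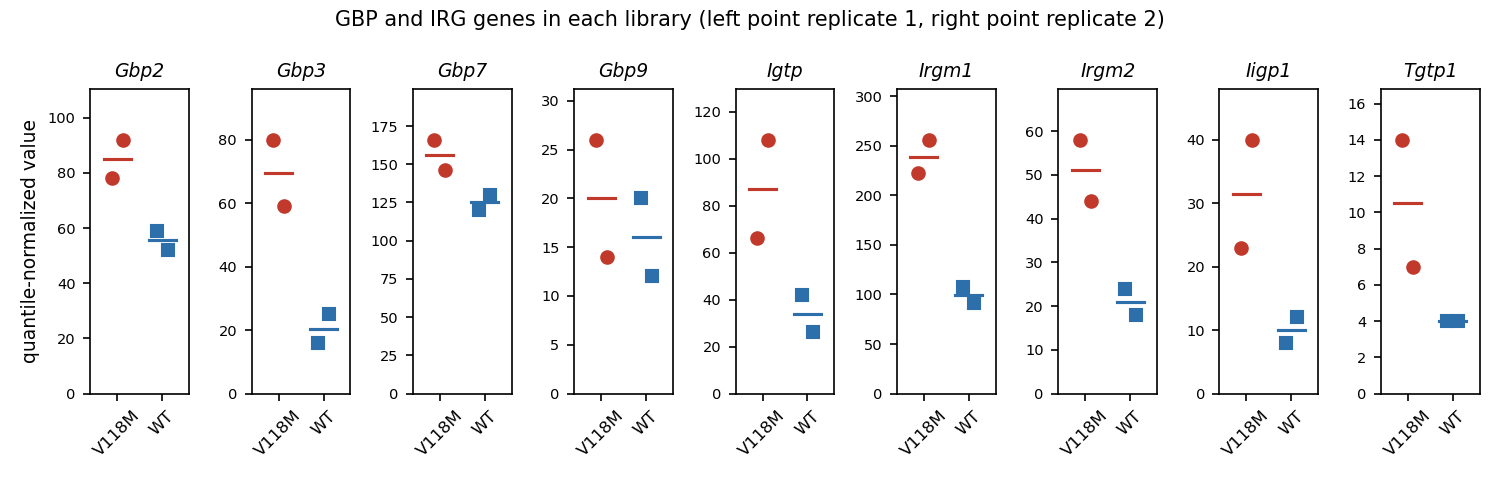
Quantile-normalized values of the 9 measured GBP and IRG genes, each on its own linear axis from 0, with V118M libraries as red circles, wild-type libraries as blue squares and group means as lines. Gbp9 is the 1 gene whose groups overlap, with V118M values of 26 and 14 and wild-type values of 20 and 12.

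Of the 3 regulatory IRGs, Irgm1 had the highest values. Irgm1 (ENSMUSG00000046879, chromosome 11, 48861968 to 48871683, minus strand) was at 222 and 256 in V118M libraries and at 108 and 91 in wild-type libraries. The groups were well apart: the means were 239 ± 24 and 99.5 ± 12 (SD, n = 2 each), a log2 fold change of 1.26 with a standard error of 0.20 (limma unadjusted p = 0.00136, adjusted p = 0.589). Among the members it had the smallest p, and 2.45% of tested genes had a higher log2 fold change. Igtp, also known as Irgm3 (ENSMUSG00000078853, chromosome 11, 58199556 to 58207591, plus strand), was at 66 and 108 in V118M and at 42 and 26 in wild type. Its V118M libraries differed widely from each other, and the groups did not overlap. The log2 fold change of Igtp was 1.33 ± 0.39 (standard error, limma unadjusted p = 0.0182, adjusted p = 0.951), and with no filter on low values it was not called (limma unadjusted p = 0.0711). Irgm2 (ENSMUSG00000069874, chromosome 11, 58199618 to 58222782, plus strand) was at 58 and 44 in V118M and at 24 and 18 in wild type. Here the difference exceeded the spread within either group, with a log2 fold change of 1.24 ± 0.34 (standard error, limma unadjusted p = 0.0138, adjusted p = 0.951). The annotated spans of Igtp and Irgm2 overlap on the same strand, but the listed Irgm2 transcript starts at 58215008, beyond the end of Igtp. Whether reads were split between them was not tested. V118M replicate 2 was the higher V118M library for Igtp and the lower one for Irgm2.

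Both effector IRGs measured were low in wild type. Iigp1 (ENSMUSG00000054072), which encodes an IRG that loads onto Toxoplasma vacuoles, was at 23 and 40 in V118M and at 8 and 12 in wild type. The groups were separate, and the log2 fold change was 1.54 ± 0.47 (standard error, limma unadjusted p = 0.0207, adjusted p = 0.951). Tgtp1 (ENSMUSG00000078922, chromosome 11, 48985327 to 48994172, minus strand), another effector, was at 14 and 7 in V118M and at 4 in each wild-type library. The V118M values did not overlap with wild type, but they differed by a factor of 2 between replicates, and the log2 fold change of 1.13 ± 0.55 was not called (standard error, limma unadjusted p = 0.0937, adjusted p = 0.951). Its transcript matched that of Tgtp2 at 99.8% of 2810 aligned bases, so the authors' counting could divide reads between these copies. Tgtp2 itself was listed at 2 and 3 in V118M and at 0 and 4 in wild type.

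The 4 measured GBPs spanned log2 fold changes of 0.28 to 1.73, where the 5 IRGs spanned 1.13 to 1.54. Gbp3 (ENSMUSG00000028268, chromosome 3, 142560026 to 142573209, plus strand) was at 80 and 59 in V118M and at 16 and 25 in wild type. These groups were far apart, with means of 69.5 ± 14.8 and 20.5 ± 6.36 (SD, n = 2 each). The log2 fold change of 1.73 ± 0.36 was the highest among the measured members (standard error, limma unadjusted p = 0.00467, adjusted p = 0.894), and 1.13% of tested genes had a higher one. Gbp2 (ENSMUSG00000028270, chromosome 3, 142620602 to 142638008, plus strand), which encodes a lipid-anchored GBP, was at 78 and 92 in V118M and at 59 and 52 in wild type. Its log2 fold change was 0.60 ± 0.24 (standard error, limma unadjusted p = 0.0541, adjusted p = 0.951), so it was not called although the groups did not overlap. It was called with a pseudocount of 0.1 (limma unadjusted p = 0.0488), with no filter (0.0305), without the trend and robust options (0.0346) and with length and GC content corrected (0.0445), and was not called in the other alternatives. Gbp7 (ENSMUSG00000040253, chromosome 3, 142530342 to 142550149, plus strand) was at 166 and 146 in V118M and at 120 and 130 in wild type, separate by a small margin (log2 fold change 0.32 ± 0.19, limma unadjusted p = 0.162, adjusted p = 0.951). Gbp9 (ENSMUSG00000029298, chromosome 5, 105077630 to 105139539, minus strand) was at 26 and 14 in V118M and at 20 and 12 in wild type. Its groups overlapped, and its log2 fold change of 0.28 ± 0.50 turned to -0.14 without V118M replicate 1 and to -0.06 without wild-type replicate 2. The annotated Gbp9 model overlaps those of Gbp4 and Gbp8 on the same strand. The median log2 fold change was 1.26 over the 5 IRGs and 0.46 over the 4 measured GBPs, a difference that was not tested.

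**Figure D2:**
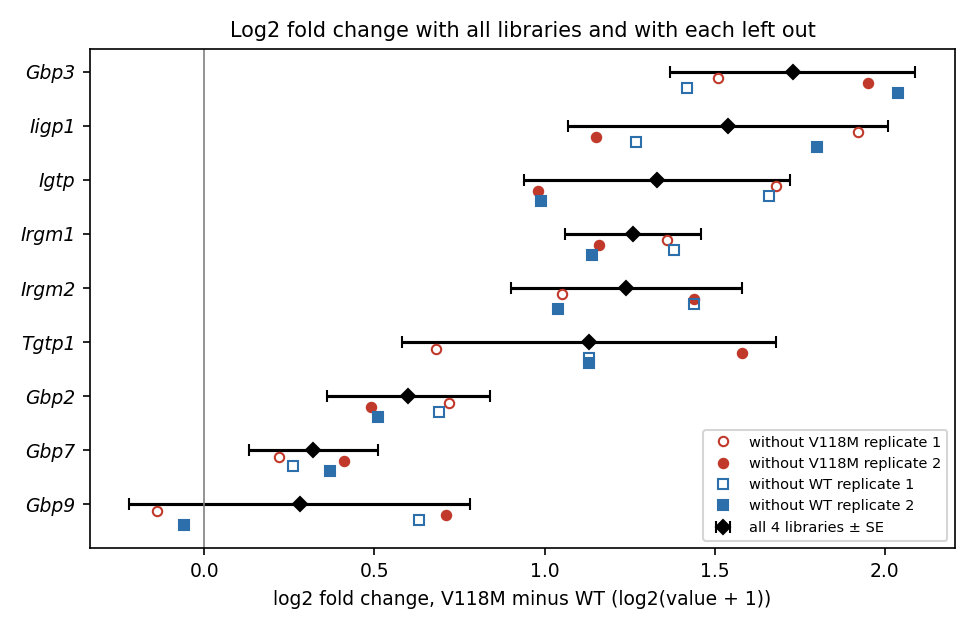
Log2 fold change of each measured member, V118M minus wild type in log2(value + 1) units, as black diamonds with standard errors and with 1 library left out as coloured symbols. Irgm1 stayed between 1.14 and 1.38 and Gbp3 between 1.42 and 2.04, while Gbp9 crossed 0.

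The members did not follow a common order of replicates within a group. V118M replicate 1 was the higher V118M library in 5 of 9 members and replicate 2 in 4. Wild-type replicate 1 was the higher wild-type library in 5, replicate 2 in 3, and Tgtp1 was tied. Leaving out V118M replicate 2 gave a lower log2 fold change for Iigp1 (1.15), Igtp (0.98), Irgm1 (1.16) and Gbp2 (0.49). It gave a higher one for Gbp3 (1.95), Irgm2 (1.44), Tgtp1 (1.58), Gbp7 (0.41) and Gbp9 (0.71). At an unadjusted p under 0.05, Irgm1 was not called without V118M replicate 2 (limma unadjusted p = 0.0544, adjusted p = 0.43). Gbp3 was not called without V118M replicate 1 (limma unadjusted p = 0.128, adjusted p = 0.279) or 2 (0.0923 and 0.516). Irgm2 and Igtp were each called in 1 of the 4 fits with a library left out, that without wild-type replicate 1 (limma unadjusted p = 0.0389 and 0.0204, adjusted p = 1 for each). Iigp1 was called in 1 of the 4, that without wild-type replicate 2 (limma unadjusted p = 0.0446, adjusted p = 1). Tgtp1, not called with all 4 libraries, was called without V118M replicate 1 (limma unadjusted p = 0.0123, adjusted p = 0.134) or 2 (0.00298 and 0.319), where its tied wild-type values were the only replicates.

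Levels between genes were compared as the value per kilobase of the transcript that the table lists. This assumes that the scores rise with transcript length, as counts do, which the sources do not state. The order of genes below rests on that assumption. In V118M, Gbp7 stood at 62.5 ± 5.66 and Irgm1 at 62.4 ± 6.27 per kilobase (SD, n = 2 each), a pair that did not differ beyond its spread. Igtp at 43 ± 14.7 and Gbp2 at 33.8 ± 3.93 per kilobase also lay within the spread of Igtp. Irgm2 at 14.5 ± 2.81 and Iigp1 at 10.8 ± 4.11 per kilobase followed, then Gbp9 at 4.57 ± 1.94 and Tgtp1 at 3.72 ± 1.75, again within the spread of each pair. Wild-type libraries had Gbp7 at 50.1 ± 2.83 per kilobase, above Irgm1 at 26 ± 3.14, Gbp2 at 22.1 ± 1.97 and Igtp at 16.8 ± 5.6. Irgm2 was at 5.95 ± 1.2, Gbp9 at 3.65 ± 1.29, Iigp1 at 3.42 ± 0.966 and Tgtp1 at 1.42 per kilobase in both wild-type libraries. There Gbp2 and Igtp, and Gbp9 and Iigp1, did not differ beyond their spread. The place of Gbp3 depended on its length: with the listed transcript of 649 bases it was at 107 ± 22.9 in V118M and 31.6 ± 9.81 in wild type per kilobase. With its longest annotated transcript of 2682 bases it was at 25.9 ± 5.54 in V118M and 7.64 ± 2.37 in wild type. Gbp7 with its longest transcript of 5614 bases was at 27.8 ± 2.52 in V118M and 22.3 ± 1.26 in wild type.

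The members lie in clusters: Gbp2, Gbp3 and Gbp7 together on chromosome 3, Irgm1 with Tgtp1 and Igtp with Irgm2 in a pair of places on chromosome 11, and Gbp9 on chromosome 5. RefSeq promoter windows of GRCm38.p6, from 250 bases before to 50 bases after a start site, were matched by symbol for 7 members. They were searched on both strands for an ISRE core, GAAANNGAAA or its reverse complement TTTCNNTTTC, and for a GAS, TTCNNNGAA, whose frame reads the same on the other strand. All 7 members with a window held an ISRE core, which 3.99% of 27025 genes with a window held. Of the 7 members, 4 held a GAS (Gbp7, Igtp, Irgm2 and Tgtp1), against 9.55% of genes. A match is a description of the letters and not a site shown to be bound. The stretches below show where the matches lie, each 80 bases long, read 5′ to 3′ on the gene's strand and starting 10 bases before the first match. Capitals mark ISRE core and GAS letters.
Irgm1, chr11:48871381-48871460, minus strand: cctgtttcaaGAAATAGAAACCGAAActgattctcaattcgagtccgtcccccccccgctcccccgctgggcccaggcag
Igtp, chr11:58199501-58199580, plus strand: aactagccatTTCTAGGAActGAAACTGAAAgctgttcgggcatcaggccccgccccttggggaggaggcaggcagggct
Irgm2, chr11:58214892-58214971, plus strand: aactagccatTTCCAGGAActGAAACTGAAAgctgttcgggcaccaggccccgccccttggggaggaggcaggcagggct
Tgtp1, chr11:48992265-48992344, minus strand: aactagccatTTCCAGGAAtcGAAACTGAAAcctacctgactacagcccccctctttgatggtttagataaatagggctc
Gbp2, chr3:142620594-142620673, plus strand: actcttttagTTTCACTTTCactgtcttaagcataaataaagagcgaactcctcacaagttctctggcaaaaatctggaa
Gbp3, chr3:142559989-142560068, plus strand: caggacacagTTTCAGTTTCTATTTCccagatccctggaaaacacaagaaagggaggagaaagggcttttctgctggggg
Gbp7, chr3:142530220-142530299, plus strand: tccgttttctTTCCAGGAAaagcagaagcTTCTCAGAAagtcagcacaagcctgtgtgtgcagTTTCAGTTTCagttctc

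In Igtp, Irgm2 and Tgtp1 a GAS was followed by an ISRE core with 2 bases between them. This arrangement, in either orientation, was found in 5 of 32851 windows, or 0.0152%: those of the 3 members, of Tgtp2 and of Gm12185, all on chromosome 11. The Igtp and Irgm2 stretches differed at 2 of 80 positions, and those of Irgm2 and Tgtp1 at 36. Irgm1 and Gbp3 each held a pair of overlapping ISRE cores, spanning bases -30 to -15 from the start of Irgm1 and -45 to -30 from that of Gbp3. The start given in the table lies upstream of the RefSeq start by 263 bases for Irgm1 and by 61 for Gbp2. The matches of both genes thus lie downstream of the start given in the table. A second RefSeq window of Gbp3 held neither motif. Gbp7, with a log2 fold change of 0.32, held 3 matches, and Gbp3, with 1.73, held the 2 overlapping ones. Gm12185, named after its values were seen, was at 22 and 6 in V118M and at 8 and 6 in wild type.

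**Figure D3:**
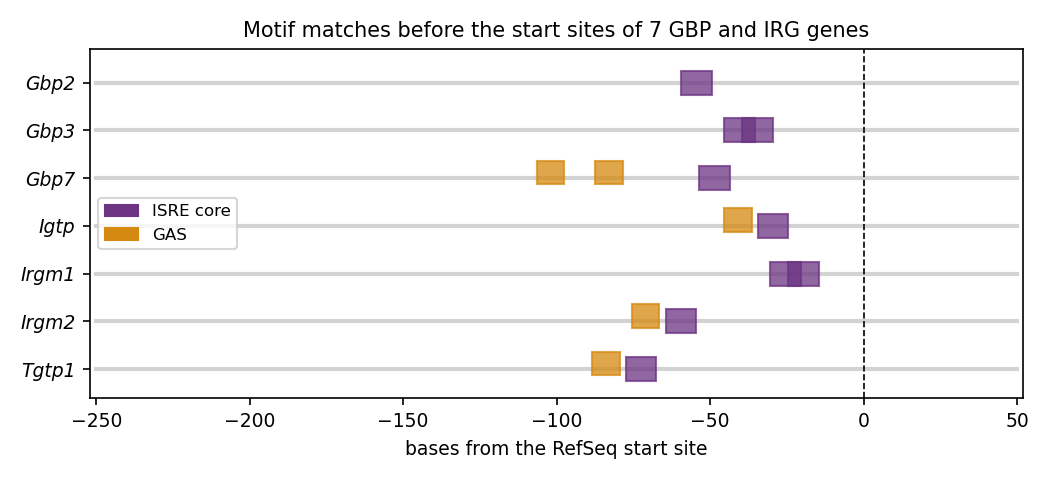
Positions of ISRE core (purple) and GAS (orange) matches, in bases from the RefSeq start site (dashed line), in the promoter windows of 7 members. The matches lie upstream of the RefSeq start, and Igtp, Irgm2 and Tgtp1 have the 2 motifs side by side. The matches of Irgm1 and Gbp2 lie downstream of the start given in the table.

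Other GTPases gave a mixed picture. Their list held further GBP and IRG relatives, and also the giant GTPase genes Gvin1 and Gm4070 and the dynamin-like Mx1. Of 23 listed genes, chosen with earlier results of these data known, 15 were in the table and 11 were tested. At an unadjusted p under 0.05, 1 was called as higher and 0 as lower, with a median log2 fold change of 0.17. The called gene was Gbp2b, the neighbour of Gbp2, at 60 and 64 in V118M and at 30 and 40 in wild type (log2 fold change 0.82 ± 0.29, limma unadjusted p = 0.0346, adjusted p = 0.951). Its listed transcript matched that of Gbp2 at 80.3% of 2325 aligned bases. Without V118M replicate 2 or wild-type replicate 1 the count of called genes was 0, and without V118M replicate 1 it was 1 higher and 4 lower, where 26.8% of all tested genes were called in either direction. With wild-type replicate 1 left out the median turned to -0.20. It was 0.28 with V118M replicate 1 left out and 0.42 with V118M replicate 2 left out, and was 0.00 with no filter and 0.03 with the stricter one. Gbp4 was at 9 and 0 in V118M and at 6 and 8 in wild type, and Gbp8, Gm4951 and Gm4841 were listed at 0 in all 4 libraries.

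Among the remaining relatives, F830016B08Rik was at 14 and 32 in V118M against 4 and 16 in wild type, and Gm5431 at 3 and 7 in V118M against 4 and 0 in wild type. These groups overlapped. The near-identical pair 9930111J21Rik1 and 9930111J21Rik2, with 99.5% of aligned transcript bases in common, stood at 61 and 38 in V118M against 64 and 67 in wild type, and at 442 and 281 in V118M against 358 and 404 in wild type. The giant GTPase gene Gvin1 was at 109 and 0 in V118M and at 57 and 88 in wild type, while Gm4070 was at 824 and 564 in V118M against 512 and 420 in wild type. Irgq, an IRG-like gene, was at 518 and 314 in V118M and at 526 and 538 in wild type, and the testis-type Irgc1 at 0 and 0 in V118M against 2 and 0 in wild type. The dynamin-like antiviral gene Mx1 was at 21 and 28 in V118M and at 22 and 21 in wild type. Its log2 fold change of 0.17 was also the median of this list, and Mx1 is counted again among the type I interferon targets below.

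Genes of interferon gamma signalling were examined beside the GTPases they can induce. The ligand gene Ifng was at 0 and 19 in V118M and at 0 and 3 in wild type, with overlapping groups. Receptor chain Ifngr1 was at 486 and 524 in V118M and at 518 and 513 in wild type, and Ifngr2 at 206 and 281 in V118M against 174 and 192 in wild type (limma unadjusted p = 0.841 and 0.131). Of 11 signalling genes considered 9 were tested, and 1 was called as higher and 0 as lower. Irf9, the DNA-binding part of the type I interferon complex, was at 542 and 468 in V118M and at 220 and 244 in wild type (log2 fold change 1.12 ± 0.17, limma unadjusted p = 0.00102, adjusted p = 0.549). Its groups were clearly apart. Irf1, an interferon-induced factor that acts on GBP and IRG genes, was at 66 and 70 in V118M and at 48 in each wild-type library, with no overlap but an unadjusted p of 0.0951 (limma). Irf8, a leukocyte factor, was listed at 0 and 0 in V118M and at 1 and 2 in wild type. Without V118M replicate 1 or 2 the signalling genes called numbered 3 in each case, 2 higher and 1 lower, where 26.8% and 12.0% of all tested genes were called in either direction.

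Of 10 negative regulators of the pathway, 2 were called as higher and 0 as lower. The deconjugating enzyme and receptor inhibitor Usp18 was at 66 and 99 in V118M and at 25 and 17 in wild type (log2 fold change 1.92 ± 0.36, limma unadjusted p = 0.00294, adjusted p = 0.804). Socs1, which blocks JAK kinases, was at 52 and 79 in V118M and at 32 and 24 in wild type (log2 fold change 1.18 ± 0.35, limma unadjusted p = 0.0184, adjusted p = 0.951). Neither gene's groups overlapped. Over the 10 regulators the median log2 fold change was 0.09. It was 0.21 and 0.06 without V118M replicate 1 or 2, and 0.01 and 0.12 without wild-type replicate 1 or 2. Socs3 was at 888 and 922 in V118M against 742 and 764 in wild type, and the phosphatase gene Ptpn6 at 58 and 52 in V118M against 82 and 79 in wild type and neither was called (limma unadjusted p = 0.114 and 0.0658).

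Other classic interferon gamma targets had a median closer to 0 than the members, a difference that was not tested. Of the 26 genes present, 24 were tested, 4 were called as higher and 0 as lower, and their median log2 fold change was 0.23. Of the 24, 19 had a log2 fold change above 0 and 5 below. Both V118M values lay above both wild-type values in 10 of the 24, where 13.2% of all tested genes showed this. They lay below both in 0. The calls were Socs1 (also in the list of regulators), the immunoproteasome subunit Psmb8 (14 and 18 in V118M, 6 in each wild-type library), the complement inhibitor Serping1 (1512 and 1800 in V118M against 1182 and 1241 in wild type) and complement C2 (20 and 23 in V118M, 10 in each wild-type library). The median of the list moved to 0.50 with V118M replicate 1 left out and to 0.08 with V118M replicate 2 left out. Without wild-type replicate 1 or 2 it was 0.24 and 0.34. The chemokine genes Cxcl9, at 4 and 0 in V118M and at 0 in each wild-type library, and Cxcl10, at 2 and 8 in V118M against 4 and 3 in wild type, were near the bottom of the scale. The class II regulator Ciita was listed at 0 in both V118M libraries and at 0 and 1 in wild type.

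Proteins that place the GTPases on membranes, or act with them, were listed as partners. Of 22 genes tested in this list, 0 were called as higher and 1 as lower, and the median log2 fold change was 0.04. Atg5, which the GTPases need to reach their targets, was at 386 and 520 in V118M and at 419 and 440 in wild type. Gabarapl2 was at 1086 and 2006 in V118M against 1203 and 1320 in wild type. The called gene was Casp1, the inflammasome protease, at 8 and 0 in V118M and at 18 and 48 in wild type (log2 fold change -3.35 ± 1.16, limma unadjusted p = 0.0335, adjusted p = 0.951). The ubiquitin ligase gene Trim21 was at 99 and 114 in V118M against 78 and 93 in wild type, the DNA sensor gene Aim2 at 63 and 62 in V118M against 52 and 46 in wild type, and Traf6 at 678 and 589 in V118M against 733 and 728 in wild type, none of them called. Without V118M replicate 1 the called genes numbered 4 higher and 3 lower, near the 26.8% of all tested genes called in that fit, and the median was 0.23. Leaving out V118M replicate 2 gave 0 higher and 4 lower, beside 12.0% of all tested genes, and a median of -0.09, while leaving out wild-type replicate 2 gave 0 calls.

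Classic type I interferon targets, set beside the members for comparison, were called as higher in 23 of 26 tested genes, with a median log2 fold change of 1.46. Irf7, Oas2, Oasl2 and Ifi44 had the smallest p-values, with log2 fold changes of 2.42, 2.99, 2.61 and 1.63 (limma adjusted p = 0.205, 0.269, 0.269 and 0.381). The count was 13 without V118M replicate 2 and 15 without either wild-type library. In this list 24 of 26 genes had both V118M values above both wild-type values, where 13.2% of all tested genes showed this. The members' log2 fold changes, from 0.28 to 1.73, lay inside the range of this list, and no difference between the lists was tested. An ISRE core was found in 11 of 19 of these genes that had a promoter window, and a GAS in 4.

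**Figure D4:**
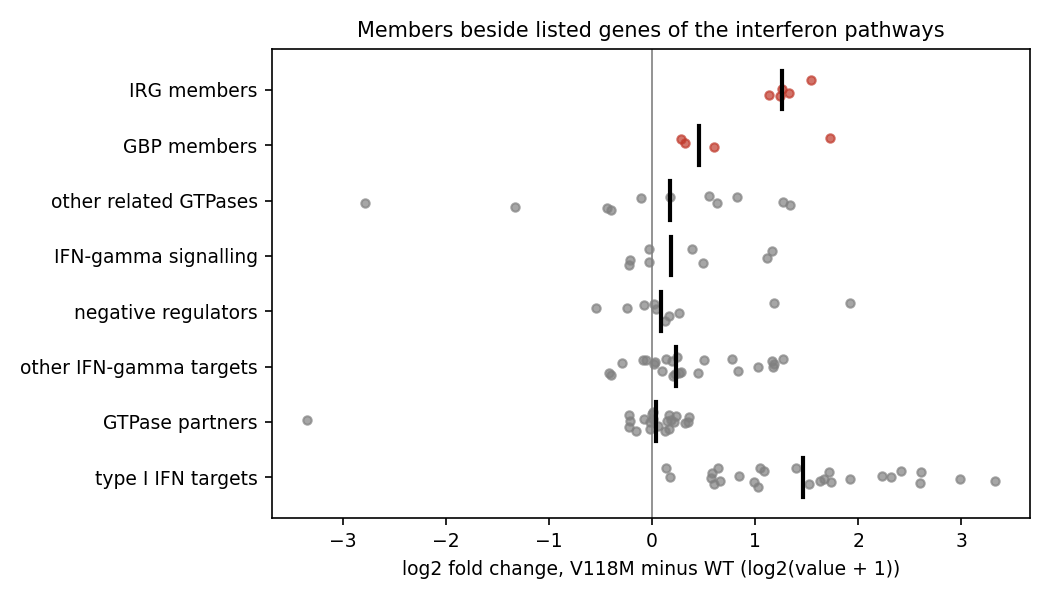
Log2 fold change of each tested gene (points) and list medians (black bars), V118M minus wild type, with the GBP and IRG members in red and other listed genes in grey. Genes at 0 throughout a group are not drawn, and the bars show 1.26 for IRGs, 0.46 for GBPs and 1.46 for type I interferon targets.

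Among markers of immune cells, which can make or answer interferon gamma, those of macrophages and leukocytes had lower sums in V118M. Those of lymphocytes and natural killer cells were low in every library. Summed over 17 macrophage and leukocyte markers, values were 713 and 777 in V118M and 1157 and 942 in wild type. Ptprc, the pan-leukocyte gene, was at 30 and 0 in V118M and at 165 and 58 in wild type, and Adgre1, the macrophage gene for F4/80, at 0 and 6 in V118M against 18 and 2 in wild type. Itgam was at 366 and 330 in V118M against 251 and 428 in wild type, and Csf1r at 26 and 46 against 58 and 20. Of 15 such markers tested, 2 had a log2 fold change above 0 and 12 below, with a median of -0.50. This median was -0.11 and -0.86 without V118M replicate 1 or 2. Without wild-type replicate 1 or 2 it was -0.10 and -1.16. Of 16 lymphocyte and natural killer cell markers 8 were in the table, with sums of 1 and 23 in V118M and 3 and 9 in wild type. Ifng made 19 of the 23 in V118M replicate 2. Cd2 was listed at 0 in all 4 libraries and Cd4 at 0 in V118M and at 0 and 3 in wild type. Summed endothelial markers were 1262 and 1228 in V118M against 1304 and 1397 in wild type, and summed epithelial markers 18779 and 20786 in V118M against 17988 and 17699 in wild type. Within the epithelial list the basal keratin gene Krt5 was called as higher, at 664 and 731 in V118M and at 246 and 199 in wild type. Krt14, also basal, was called as higher at 5802 and 8053 in V118M and at 4752 and 4358 in wild type (for Krt5 and Krt14 limma unadjusted p = 0.000204 and 0.0365, adjusted p = 0.332 and 0.951). Krt8, at 6332 and 5972 in V118M and at 6702 and 6490 in wild type, Cdh1, at 3425 and 2822 in V118M and at 3492 in each wild-type library, and Cldn6, at 62 and 36 in V118M and at 70 and 87 in wild type, had V118M values below both wild-type values and were not called. The endothelial cadherin gene Cdh5 was called as lower, at 9 and 6 in V118M and at 26 and 16 in wild type (limma unadjusted p = 0.0368, adjusted p = 0.951). In contrast, Pecam1 was at 18 and 24 in V118M against 17 and 14 in wild type. Erg was at 83 and 78 in V118M against 52 and 68 in wild type. Of 8 endothelial markers tested, 4 had a log2 fold change above 0 and 4 below, with a median of -0.08. The largest endothelial values were those of Tek, at 1054 and 933 in V118M and at 1103 and 1172 in wild type. Of the fibroblast markers, Postn, at 1889 and 1744 in V118M and at 1263 and 1098 in wild type, and Pdgfra, at 460 and 352 in V118M and at 302 and 248 in wild type, were called as higher (limma unadjusted p = 0.00905 and 0.0453, adjusted p = 0.951 for each). Among the 14 fibroblast markers tested, 8 had a log2 fold change above 0 and 6 below, with a median of 0.01. Col3a1 (-0.53, a step between top scores that follow rank) and Fbn1 (-0.55) were among those below. The part of these markers in the members' values was not tested.

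The 5 genes outside the list whose profiles were nearest to the members were found among 12655 genes whose mean log2 value was 5 or more. Nearness was the Euclidean distance to the median centred log2 profile of the measured members over 4 libraries, so these genes share the libraries with them by construction. That profile stood at 0.53 and 0.43 in V118M and at -0.42 and -0.56 in wild type. The nearest was the receptor gene Gpr83 (distance 0.14), at 50 and 48 in V118M and at 24 and 25 in wild type. The carboxylesterase gene Ces1g (distance 0.149) was at 134 and 112 in V118M against 71 and 60 in wild type, and Oasl1, of the OAS family (distance 0.163), at 168 and 152 in V118M against 76 and 80 in wild type. The secreted Wnt modulator Sfrp2 (distance 0.167) was at 556 and 610 in V118M against 314 and 285 in wild type, and the metalloproteinase gene Mmp3 (distance 0.173) at 247 and 237 in V118M against 146 and 132 in wild type.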

How the data were processed

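The deposited table holds 1 score per gene and library, whole numbers that the authors had normalized by a method not given in the sources used here. Their sorted columns nearly coincide, as after quantile normalization, so they were not treated as counts in the fits. Per the submitters' processing notes, RSEM, Bowtie2, DESeq2 and FastQC were used with mm10, their roles and versions not being given. Columns were assigned to samples through the sample titles.

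Analysis was on log2(value + 1), over the 19547 genes that reached a value of 1 in 2 or more libraries. limma 3.58.1 in R 4.3.3 was fitted on all of them with group as the only term, the trend and robust options, two-sided tests and Benjamini-Hochberg adjustment over all genes tested. The lowest adjusted p was 0.205. Fold changes are V118M minus wild type, understate changes of low genes, and are left out where a group is entirely at 0. The fit was tested on simulated data.

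Gene positions and transcripts came from GENCODE M21 (GRCm38, also called mm10), and promoter windows from RefSeq (GRCm38.p6). Transcripts were aligned globally to count shared bases. The members and lists were chosen with earlier results of these data known. Named were the measured members, their relatives, the ligand and receptors, up to 4 genes of each pathway list by smallest p, and the 5 nearest profiles. One listed signalling gene is not reported here. Other named genes were chosen after their values were seen. Alternatives were other pseudocounts and filters, a replicate block, array weights, limma without the trend and robust options, each library left out and, added after seeing the data, correction of each library for transcript length and GC content.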

Additional observations from a re-analysis of the deposited data

How the results depend on the processing

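Over these alternatives no measured member passed an adjusted p of 0.05, and each measured member except Gbp9 kept a positive log2 fold change where it was tested. Tgtp1 was removed by the stricter filter. The members called as higher numbered 5 or 6 in the alternatives that kept all 4 libraries. Gbp2 gained its call in 4 of them, and Igtp lost its call without a filter. All genes called in either direction in these alternatives ranged from 542 with the stricter filter to 1441 with no filter. With a library left out, Gbp9 ranged from -0.14 (without V118M replicate 1) to 0.71, and it was -0.06 without wild-type replicate 2. The members' median log2 fold change was 1.11 with a pseudocount of 5 and 1.04 to 1.27 with a library left out. With a library left out, the members called at an unadjusted p under 0.05 numbered 1 to 4, and all genes called 221 to 5096. The genes called as higher numbered 0 to 1 for the related GTPases, of which 4 were called as lower without V118M replicate 1. Genes called in either direction numbered 1 to 3 for signalling, 1 to 3 for negative regulators, 0 to 4 for other interferon gamma targets, 0 to 7 for GTPase partners and 13 to 17 for type I targets. Fewer libraries entered these fits. Without a filter 1441 genes, 3 signalling genes and 4 negative regulators were called. The stricter filter left 2 other interferon gamma targets called. With a pseudocount of 0.1, 0 GTPase partners were called. Array quality weights gave 0 related GTPases called as higher and 2 other interferon gamma targets. Without the trend and robust options there were 3 signalling genes and 0 partners, and removal of the length and GC trend gave 2 related GTPases and a member median of 1.30. The cause of these shifts was not tested.

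The replicate numbers were used as a block in 1 fit. Same-numbered libraries deviated together across genes (r = 0.303), but the labels do not say that a number marks a shared culture. With the block 1204 genes were called at an unadjusted p under 0.05 (784 without it), 3 related GTPases were called, and 3 genes passed an adjusted p of 0.05: Oas2, Ifi27l2a and C4b (each limma adjusted p = 0.0276). The members called stayed at 5. The depth of the libraries is unknown, so the precision of low values such as those of Tgtp1 cannot be stated.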
